A study of Mus musculus with 4 samples.

Results

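The milk protein genes described here are the 5 casein genes Csn1s1, Csn1s2a, Csn1s2b, Csn2 and Csn3 and the 3 whey protein genes Wap, Lalba and Glycam1. They were chosen by name, through the RefSeq accession given for each probe, and are 8 of the 18952 genes named on the arrays. They are read by 9 probes, 1 per gene except for Wap, which has 2. RNA came from mammary glands of female mice aged 13 weeks that all carry Δ16HER2, the human receptor HER2 in a splice variant known to drive mammary tumours, collected at a stage the labels call pre-neoplastic. The mice differ in the stathmin gene Stmn1, and 2 arrays are labelled WT (WT 1 and WT 2) and 2 are labelled STM KO (knockout 1 and knockout 2). A free-text description shared by the 4 samples speaks of EOC cells, contrary to their titles, sources and tissue labels, and was not used for grouping. The promoter that drives the transgene, the way the knockout was made, and the parity and oestrous stage of the mice are not given in the sources used here. Whether the samples come from separate animals is not stated, and p-values here reflect the spread between these 4 samples, which may be technical. The comparison asks how loss of stathmin, a protein that destabilises microtubules, alters expression in the transgenic gland.

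Caseins are the phosphoproteins that carry calcium in milk as micelles, with the kappa casein made from Csn3 holding the micelle surface. Whey proteins stay soluble: Wap encodes the whey acidic protein, and Lalba encodes alpha-lactalbumin, the subunit that turns a galactosyltransferase into lactose synthase. Prolactin acts through its receptor, the kinase JAK2 and the transcription factor STAT5 to switch these genes on in alveolar cells in pregnancy and lactation, and virgin glands already carry some casein RNA. Glycam1 encodes a mucin-like protein that is secreted into milk and is also made by the high endothelial venules of lymph nodes, the vessels through which lymphocytes enter the node.

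The sequences before the transcription start show how the genes with the largest differences compare with Glycam1, which followed a different pattern. RefSeq promoter sequences (build GRCm38.p6) were matched for 6 of the 8 genes by symbol, and the 250 bases before the start site were read 5′ to 3′ along the gene. The motif TTCNNNGAA, the palindrome that STAT proteins bind, was found in 3 of the 6, and 7.02% of 32851 promoters of the same length in that table hold it. It lay at -100 to -92 in Csn1s1 (chr5:87665958-87666207, plus strand), at -93 to -85 in Csn2 (chr5:87699426-87699675, minus strand) and at -145 to -137 in Glycam1 (chr15:103565082-103565331, minus strand), counted from the start site. The window of Csn1s2a (chr5:87774200-87774449, plus strand), the casein with the largest difference, does not hold those letters. Capitals mark TTCNNNGAA.
Csn1s1: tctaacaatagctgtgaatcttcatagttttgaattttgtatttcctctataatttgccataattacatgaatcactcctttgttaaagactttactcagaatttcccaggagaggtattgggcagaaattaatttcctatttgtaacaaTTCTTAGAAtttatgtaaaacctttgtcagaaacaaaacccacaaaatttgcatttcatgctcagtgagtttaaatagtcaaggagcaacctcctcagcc
Csn2: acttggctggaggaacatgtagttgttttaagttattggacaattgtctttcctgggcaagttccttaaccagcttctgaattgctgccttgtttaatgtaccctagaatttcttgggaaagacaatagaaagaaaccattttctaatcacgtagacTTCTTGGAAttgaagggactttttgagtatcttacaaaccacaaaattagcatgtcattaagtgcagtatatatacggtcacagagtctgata
Csn1s2a: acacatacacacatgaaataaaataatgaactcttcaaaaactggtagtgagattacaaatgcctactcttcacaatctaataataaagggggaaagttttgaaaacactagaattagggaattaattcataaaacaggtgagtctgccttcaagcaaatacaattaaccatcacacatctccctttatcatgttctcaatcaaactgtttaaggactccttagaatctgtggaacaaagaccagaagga
Glycam1: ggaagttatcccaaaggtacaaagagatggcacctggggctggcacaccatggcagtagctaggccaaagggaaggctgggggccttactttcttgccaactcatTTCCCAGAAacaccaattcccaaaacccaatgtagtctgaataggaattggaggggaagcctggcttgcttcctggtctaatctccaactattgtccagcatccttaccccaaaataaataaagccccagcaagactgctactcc
Other motifs were searched on both strands of the same windows. AGAACA, a steroid receptor core held by 16.1% of promoters, was found in Csn1s2a alone of the 6, as TGTTCT from -59 to -54. GGAAGT, an ETS factor core held by 19.7%, was found in Wap and Glycam1, and TATAAA, held by 12.4%, in none of the 6. No match overlapped another. A match is a description of letters, and binding was not measured here.

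Levels are given as log2 of the processed signal minus the array's 75th percentile, and differences as knockout minus WT on that log2 scale. Between 54.7% and 66.2% of probe spots were well above background per array and no spot was saturated. The 2 probes of the targeted gene Stmn1 disagreed. The brighter read 5.59 and 3.59 on the WT arrays and 4.56 and 3.34 on the knockout arrays, so its groups overlap, and the dimmer was well above background on WT 1 alone. The genotype is therefore given as labelled in every comparison here. Among marker lists, 9 of 9 luminal and 8 of 8 basal and myoepithelial genes were well above background on all 4 arrays, so the RNA contains mammary epithelium. White adipocyte and skeletal muscle markers were also well above background on all 4 arrays, at 6 of 6 each. Knockout 2 stands apart by its lymphocyte RNA: the B cell markers summed to 22.8 times the 75th percentile of that array, against 0.548 on knockout 1 and 0.620 to 0.758 on the WT arrays.

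Both arrays labelled knockout lay below both WT arrays for Csn1s2a, Csn2, Csn1s1, Csn3, Wap and Lalba, as they did for 17.8% of all tested genes. Wap was well above background on neither knockout array. The difference was widest for 3 caseins, 29.3-fold for Csn1s2a, 14.8-fold for Csn2 and 9.92-fold for Csn1s1, and narrowest for Csn3, at 1.74-fold. Csn1s2b and Glycam1 overlapped between the groups. No milk protein gene passed limma's test over all genes, with an adjusted p of 0.935 for each of the 6 tested. In bulk tissue, fewer cells that express a gene and less RNA per cell cannot be told apart.

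**Figure D1:**
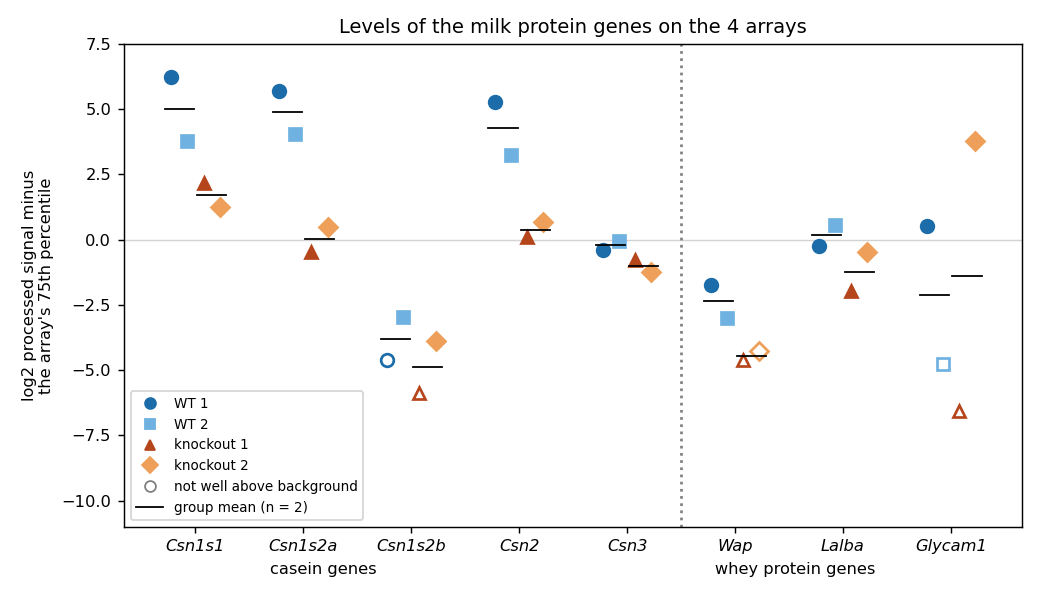
Levels of the 8 milk protein genes on the 4 arrays (y axis, log2 processed signal minus the array's 75th percentile), with open symbols where the probe was not well above background and a black line at each group mean of 2 arrays. Csn1s1, Csn1s2a and Csn2 separate by genotype label with the widest gaps, Csn3 and Lalba lie close together, and Glycam1 is high on WT 1 and knockout 2.

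Csn1s2a, one of the calcium-sensitive caseins, had processed signals of 10015 and 2402 on WT 1 and WT 2 and 213 and 223 on knockout 1 and knockout 2. On the scaled log2 level these were 5.71 and 4.06 against -0.45 and 0.48. Both WT arrays were high and both knockout arrays low, and 3.58 log2 units separated the lower WT array from the higher knockout array. The difference was -4.87 ± 0.63 (SE, n = 2 per group), with a 95% interval from -6.47 to -3.27 and an unadjusted limma p of 0.000465. It had the second largest negative difference of the 13235 genes tested.

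Csn2 encodes beta casein. Its signals were 7462 and 1381 on the WT arrays and 313 and 255 on the knockout arrays, which gave levels of 5.28 and 3.26 for WT and 0.10 and 0.67 for knockout. The groups were apart by 2.59, a gap wider than the 2.03 between the 2 WT arrays. The difference was -3.88 ± 0.69 (SE), with a 95% interval from -5.63 to -2.13 (limma, unadjusted p = 0.0021).

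Csn1s1, which encodes alpha S1 casein, was graded across the 4 arrays. Its signals were 14433, 2000, 1307 and 379 on WT 1, WT 2, knockout 1 and knockout 2, and its levels 6.24, 3.79, 2.16 and 1.24. The groups did not overlap, but the gap of 1.63 between WT 2 and knockout 1 was smaller than the 2.45 between the 2 WT arrays. The difference was -3.31 ± 0.84 (SE; limma, unadjusted p = 0.00992), and it was -2.09 without WT 1, the array with the highest Csn1s1 signal.

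Csn3 and Csn1s2b did not share the size of these differences. Csn3 read -0.41 and -0.03 on the WT arrays and -0.79 and -1.24 on the knockout arrays, so all 4 arrays lay within 1.21 log2 units of each other. The groups were apart by 0.39, and the difference was -0.80 ± 0.30 (SE; limma, unadjusted p = 0.0410). Without the filter on dim probes the unadjusted limma p was 0.0745. Before scaling, the Csn3 signals were 144 and 141 on the WT arrays and 168 and 68.0 on the knockout arrays, so the unscaled groups overlapped. Csn1s2b, the paralogue next to Csn1s2a on chromosome 5, was close to background, with signals of 7.76, 18.7, 4.96 and 10.8 in the same array order. It was well above background on WT 2 and knockout 2 only, its groups overlapped, and it failed the filter for testing.

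Of the whey genes, Wap was dim. Its 2 probes gave signals of 57.3 and 49.7 on WT 1 and 18.2 and 22.7 on WT 2. The same probes read 11.8 and 10.1 on knockout 1 and 8.28 and 8.90 on knockout 2. Both probes were well above background on both WT arrays and on neither knockout array, so Wap entered the test through its WT signal alone. It was 4.24-fold lower on the arrays labelled knockout by the brighter probe and 4.50-fold lower by the other. Each value takes a knockout array at the higher of its own reading and the lowest signal well above background on that array. These values are not lower limits, and for the brighter probe the value equals the fitted fold. The fitted differences of the 2 probes were -2.09 ± 0.46 and -2.20 ± 0.39 (SE; limma adjusted p = 0.935 for each), and that of the brighter probe was -0.57 after normexp background correction.

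Lalba could be read on every array, well above background, and its groups were only just apart. It read -0.23 and 0.56 on the WT arrays and -1.96 and -0.49 on the knockout arrays. The highest knockout array was 0.25 below the lowest WT array, less than the 1.48 between the knockout arrays. The difference was -1.39 ± 0.57 (SE), with a 95% interval from -2.82 to 0.05 (limma, unadjusted p = 0.0560). On the scaled level Lalba was lowest on knockout 1, as were Csn1s2a, Csn1s2b, Csn2, Wap and Glycam1. Csn1s1 and Csn3 were lowest on knockout 2.

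**Figure D2:**
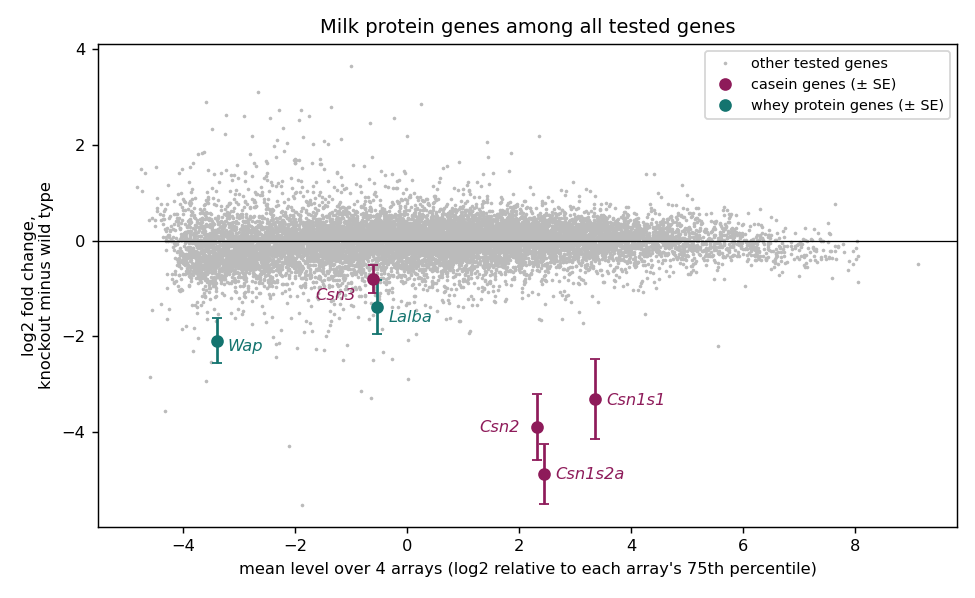
Log2 difference, knockout minus WT as labelled (y axis), against the mean level over the 4 arrays (x axis) for the 13235 tested genes, with the 6 tested milk protein genes coloured and their SE as bars. Csn1s2a, Csn2 and Csn1s1 lie below nearly all genes of their level, at -4.87, -3.88 and -3.31, while Csn3 lies near the cloud at -0.80.

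Against all genes, limma called 0% of the 13235 tested genes lower and 0% higher at an adjusted p under 0.05, so the members' count of 0 is that of the whole table. An unadjusted limma p under 0.05 was reached by 469 of the 13235 genes, and by 2.4% of all genes in the lower direction. Both knockout arrays lay below both WT arrays for 17.8% of genes and above them for 17.7%, and 1.79% had a log2 difference of -1 or below. Of the 5 milk protein genes well above background on all 4 arrays, 5 had both knockout arrays below both WT arrays, 4 were at least 2-fold lower and 4 had an unadjusted p under 0.05. The members were chosen with earlier results of these arrays known, so these counts describe them and are not a test.

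With 1 array left out the 6 tested genes had to stay negative, since both knockout arrays lay below both WT arrays for each. Only the size of the difference could change. Csn1s2a then ran from -5.70 to -4.04, Csn2 from -4.90 to -2.87 and Csn1s1 from -4.53 to -2.09, with the smallest value of each without WT 1. Csn3 ran from -1.02 to -0.57, Wap from -2.71 to -1.46 and Lalba from -2.13 to -0.65. Lalba thus depended most on a single array in relative terms, at -0.65 without knockout 1. Under median centring, which moved the median of all genes from -0.01 to 0.19, Csn1s2a passed the limma test at -4.68 (adjusted p = 0.00824), and across its 13 alternatives the adjusted p ran from 0.00824 to 0.99955.

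**Figure D3:**
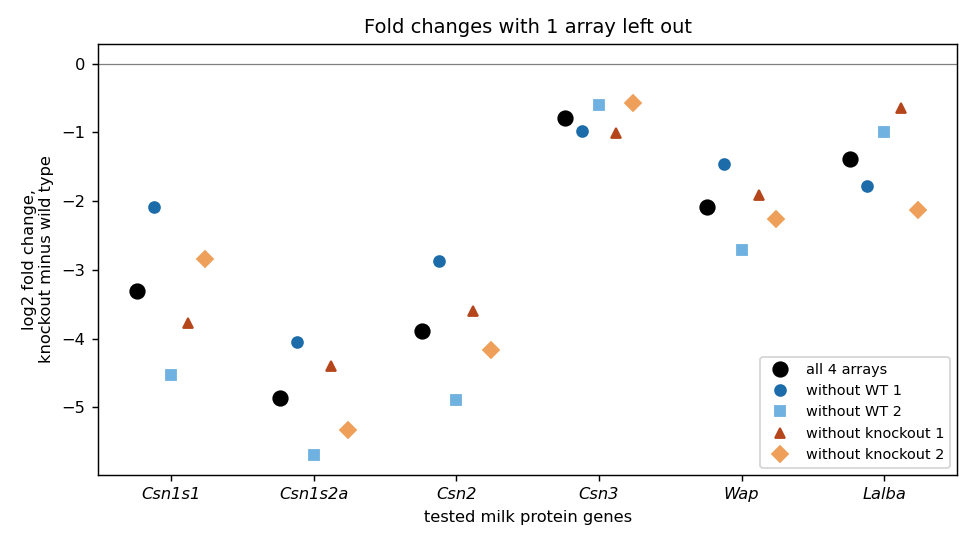
Log2 difference, knockout minus WT as labelled (y axis), of the 6 tested milk protein genes with all 4 arrays (black) and with each array left out (coloured). All points lie below 0, as they must where the groups are apart, and Csn1s1 spans the most, from -4.53 to -2.09.

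Caseins and whey genes were then set side by side array by array, each gene taken relative to its own mean over the 4 arrays. The 5 caseins averaged 1.80 and 0.99 for WT 1 and WT 2 and -1.61 and -1.18 for knockout 1 and knockout 2, a difference of -2.79 with a within-group SD of 0.46. The 3 whey genes averaged 1.41, -0.50, -2.49 and 1.58 in the same order, a difference of -0.91 with a within-group SD of 2.25. The casein average separated the genotype labels on every array. The whey average was high on WT 1 and knockout 2, as Glycam1 was, and its difference was smaller than its spread. Without Glycam1 the whey average was 0.98 and 0.75 on the WT arrays and -1.33 and -0.41 on the knockout arrays. Its groups were then apart, with a within-group SD of 0.47, and it rested on Wap and Lalba.

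Glycam1 and Wap limit that comparison, since neither whey gene could be read well above background on all 4 arrays, and Csn1s2b could not be either. The genes that could were 4 caseins and Lalba. These caseins averaged 2.33 and 0.89 for WT and -1.62 and -1.59 for knockout, a difference of -3.22 with a within-group SD of 0.72, and Lalba differed by -1.39. The casein minus Lalba value within an array was 2.03 for WT 1 and -0.20 for WT 2, against -0.19 for knockout 1 and -1.64 for knockout 2. WT 2 and knockout 1 were thus alike in this value and the groups overlapped, with a difference of -1.83, a within-group SD of 1.33 and a range from -2.94 to -0.72 with 1 array left out. With all 8 genes the casein minus whey value differed by -1.88, also overlapped between groups, and was -0.06 without knockout 2. No p is given for these averages over chosen genes.

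**Figure D4:**
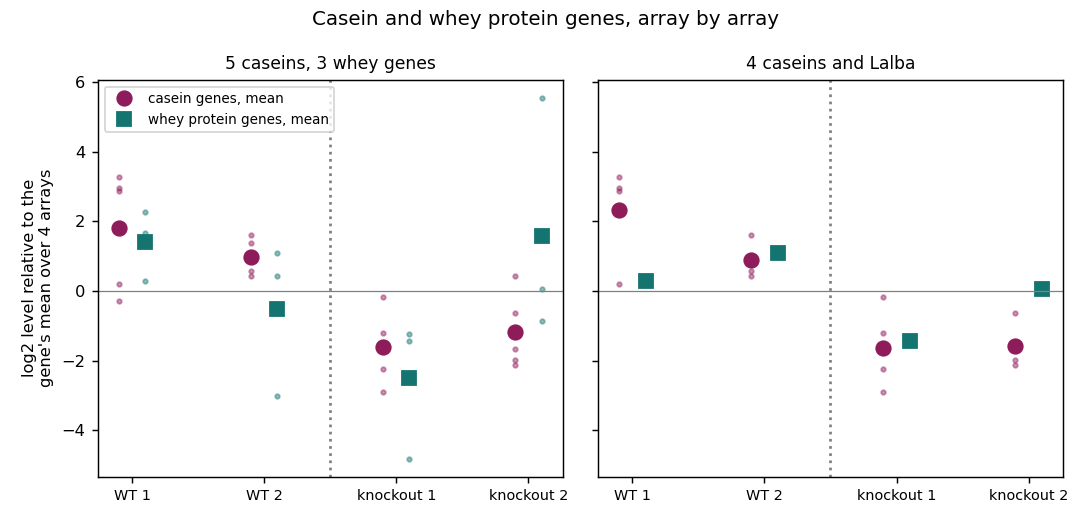
Level of each gene relative to its own mean over the 4 arrays (y axis, log2; small points) and the mean over casein genes (large circles) and whey genes (large squares) on each array, for all 8 genes (left) and for the 5 genes well above background on all 4 arrays (right, where Lalba is the 1 whey gene). On the left the whey mean, which includes Glycam1, is 1.58 on knockout 2 and -0.50 on WT 2. On the right the casein mean is above 0 on both WT arrays and at -1.62 and -1.59 on the knockout arrays.

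Gene by gene, the caseins differed among themselves in relation to Lalba. The within-array value of Csn1s2a relative to Lalba, each gene again set against its own mean, was 2.96 and 0.52 on the WT arrays and -1.47 and -2.02 on the knockout arrays, so the groups were apart. That of Csn2 was 2.66 and -0.16 against -0.79 and -1.70, also apart. Csn1s1 relative to Lalba was 2.58 and -0.65 against 0.24 and -2.16 and overlapped. Csn3 relative to Lalba, at -0.09 and -0.50 against 1.26 and -0.66, overlapped as well. The average over all caseins was -3.29 when Csn3 was left out, against -2.79 with it.

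Luminal markers were lower on 1 knockout array. The luminal markers averaged 0.26 and 0.19 on the WT arrays, 0.19 on knockout 1 and -0.64 on knockout 2, and their summed scaled signals were 104 to 140 on the WT arrays and 78.1 to 124 on the knockout arrays. Taken relative to the luminal average of the same array, Csn1s2a was -4.42 between groups, Csn2 -3.44 and Csn1s1 -2.86, each with groups apart. Csn3 was then -0.35 and Lalba -0.94, and both overlapped. On knockout 1 the luminal average was within 0.07 of both WT arrays, and Csn1s2a and Csn2 were lowest there. Csn1s1 and Csn3 were lowest on knockout 2. The part of luminal cell content in the casein differences was not tested. Markers of dividing cells averaged 0.95 and -0.89 on the WT arrays and 0.51 and -0.56 on the knockout arrays, and their part in the differences between arrays of 1 group was not tested.

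The signals of Glycam1 were 276, 5.35, 3.09 and 2233 on WT 1, WT 2, knockout 1 and knockout 2. Only WT 1 and knockout 2, 1 array of each genotype label, were well above background, so the groups overlapped and the gene was not tested. Its pattern was not that of any casein. On knockout 2 it was accompanied by high levels of the lymph node list. Of its 10 genes, 9 were well above background there, against 8 on WT 1, 5 on WT 2 and 6 on knockout 1. Ccl19 read 4.73 and Ccl21a 3.42 on knockout 2, chemokines that draw lymphocytes and dendritic cells into nodes. The list's summed scaled signal was 74.5 on knockout 2, 2.36 on knockout 1 and 3.26 to 3.49 on the WT arrays, and B and T cell markers were highest on knockout 2 as well.

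On WT 1 Glycam1 was present without that lymphocyte signal. The B and T cell averages of WT 1 were -0.65 and -0.97, against -0.61 and -1.36 on WT 2. Of the genes of high endothelial venules, Chst4, a sulfotransferase that decorates their mucins, was well above background on WT 1 and knockout 2 only, as Glycam1 was, and it read -2.67, -3.33, -3.84 and -3.06 in array order. Fut7, the fucosyltransferase of the same pathway, read -2.05, -3.58, -3.57 and 1.20, and Madcam1, a venule adhesion molecule, was well above background on none of the 4 arrays. The part of lymph node tissue in the Glycam1 signal was not tested.

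**Figure D5:**
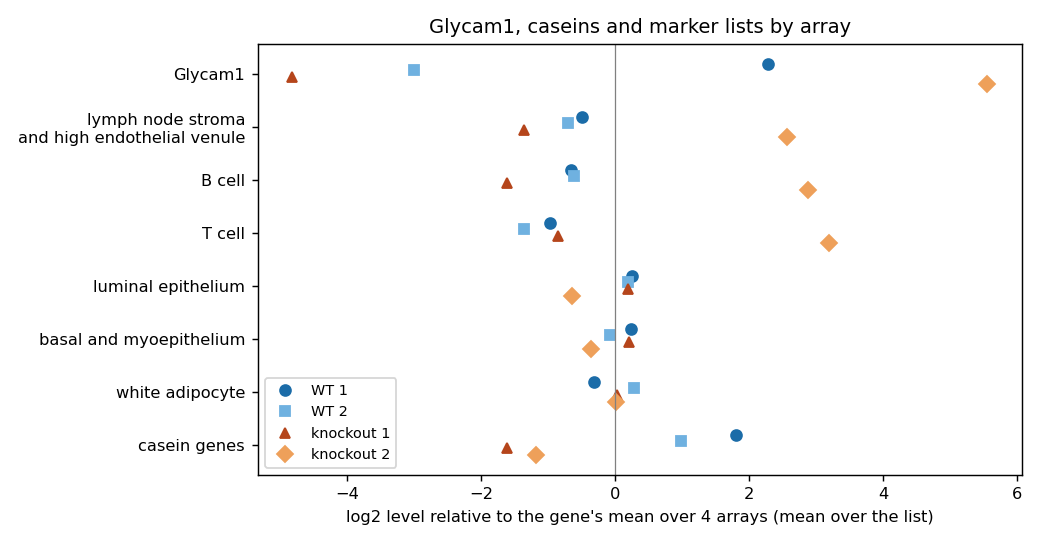
Level relative to the mean over the 4 arrays (x axis, log2) of Glycam1, of the casein average and of the averages of 6 marker lists, with 1 symbol per array. Glycam1 and the lymph node, B cell and T cell lists are highest on knockout 2 (5.55 for Glycam1), and the casein average has both WT arrays above 0 and both knockout arrays below it.

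Other genes of lactation had smaller differences than Csn1s2a, Csn2 and Csn1s1. Of 24 listed milk and lactation genes, 18 were tested and 0 passed limma's adjusted test, with a median of -0.41 beside -0.01 over all tested genes. Of these, 16 were negative, against 50.8% of all tested genes. Both knockout arrays lay below both WT arrays for 5 (17.8% of all genes) and above them for 1 (17.7%). Wfdc18, a small secreted protein with the same type of cysteine-rich fold as Wap, read 6.77 and 6.52 on the WT arrays and 5.16 and 3.74 on the knockout arrays, giving a difference of -2.19 ± 0.50 (SE). The folate receptor Folr1 read 1.72 and 1.84 against 0.11 and 0.08 (-1.68 ± 0.24), and osteopontin, Spp1, read 4.02 and 4.08 against 2.08 and 3.47 (-1.27 ± 0.49). Each of these 3 genes had groups apart, and for Folr1 the arrays within each group differed by far less than the groups.

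The prolactin and STAT5 list did not show the casein pattern. Of 22 listed genes, 21 were tested and 0 passed. Of the 21, 14 were negative, beside 50.8% of all tested genes. Groups were apart for 3 lower and 3 higher genes, beside 17.8% and 17.7% of all genes. The median difference was -0.07. That median was 0.021 without WT 2 and -0.11 without knockout 2. The prolactin receptor Prlr read 1.39 and 2.33 on the WT arrays and 1.52 and 2.07 on the knockout arrays (-0.07 ± 0.41, SE). Stat5a read 2.55 and 2.64 against 2.74 and 2.41 (-0.02 ± 0.26), and Stat5b had a difference of -0.37 ± 0.30. For these 3 genes the groups overlapped, and the arrays measure RNA, not STAT5 activity. Elf5, the alveolar transcription factor, read 4.29 and 2.94 against 3.02 and 2.46 (-0.88 ± 0.51), with overlap. Among the 6 genes with groups apart, the largest differences were -0.89 ± 0.28 for Gata3, a regulator of luminal cells, 0.86 ± 0.27 for Hsd11b1, which makes active glucocorticoid, and -0.82 ± 0.33 for Id2, needed for alveolar growth.

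Neighbours of the caseins on chromosome 5 could hardly be read. The caseins lie together in RefSeq's order, from Csn1s1 to Csn3, and of 27 other annotated genes among them and within 10 genes on each side, 10 had a named probe and 2 could be tested. Prol1, a proline-rich secreted protein known from salivary and lacrimal glands, read -1.41 and -0.83 on the WT arrays and -4.20 and -2.91 on the knockout arrays, with groups apart (-2.43 ± 0.50, SE). Ugt2a1, a glucuronosyltransferase on the other side of the cluster, overlapped between the groups (-0.26 ± 0.40). Relatives of Wap and Lalba by protein family, the Wfdc genes, Slpi and the lysozymes, had a median of -0.23 over 11 tested genes of 27 listed, with 0 passing, 4 lower and 0 higher with groups apart, beside 17.8% and 17.7% of all genes. That median was -0.67 without knockout 1, -0.45 without WT 1 and -0.42 without knockout 2. Besides Wfdc18, the largest of these were Wfdc3 at -1.10 ± 0.47 and the lysozyme-like Lyzl4 at -1.02 ± 0.27.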

How the data were processed

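Cy3-labelled total RNA was hybridised to 4 one-colour Agilent arrays on 1 slide. Spot intensity files of the scanner were deposited by the authors. The software was Agilent Feature Extraction; its version is 11.5.1.1 in the deposited file headers but 10.7.3.1 in the submitters' processing notes. Processed signal intensities are background-subtracted and detrended within the array only. A second deposited table holds the authors' log2 values, with steps unstated. It matched log2 signals after quantile normalization and centring of every probe at its median (lowest Pearson r across probes 0.99999), with column medians of -0.018, 0.018, 0.0063 and -0.0096 in the order WT 1, WT 2, knockout 1, knockout 2.

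Processed signals were scaled to each array's 75th percentile before log2. Control spots and outlier spots (35 to 73 per array) were left out, and spots of a probe were averaged. Probe accessions were matched without version to RefSeq (GRCm38.p6), naming 27816 of 41174 probes. Probes that both arrays of either group read well above background (24188) were tested with limma 3.58.1 in R 4.3.3, with Benjamini-Hochberg adjustment over all of them, and a gene was read at its brightest probe. The fit was checked on simulated data. For a gene not well above background in 1 group, the fold takes the higher of its own signal and the lowest signal well above background. Such a fold need not be a lower limit. The intensity over background, and the number of arrays, limit the precision.

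The named genes are all members, up to 3 genes with the largest difference among those with groups apart in each list, Prlr, Stat5a, Stat5b and Elf5, the 5 genes nearest in profile to the caseins and to Glycam1, and Stmn1. Outside that rule, Ugt2a1, Ccl19, Ccl21a, Chst4 and Madcam1 were chosen after their values were seen. The members and lists were chosen with earlier results of these data known. In the labels, WT arrays precede knockout arrays on the slide, so position and genotype cannot be told apart.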

Additional observations from a re-analysis of the deposited data

How the results depend on the processing

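The results were recomputed under 13 alternatives. Of 77 recomputed differences of the 6 tested milk protein genes, all were negative and 1 passed the threshold, Csn1s2a under median centring. The sign was fixed in advance where 1 array was left out, since the groups of each gene were apart. Keeping outlier spots or changing the filter on dim probes returned the main differences. These settings therefore add no separate support for the direction. Under that centring 3 genes in all were lower at an adjusted limma p under 0.05 and 0 higher; the cause was not tested. Wap could not be fitted where probes had to be well above background on all 4 arrays. Normexp correction, run on median spot signals, gave -0.57 for Wap and -0.05 for the whey average. With the replicate number as a block the differences are the same by construction, and the adjusted p was 0.954 for each tested milk protein gene with 0 genes called; deviations of same-numbered arrays correlated at 0.06 over tested probes, so the numbers were not taken to pair the samples. The casein average ran from -3.20 to -2.38 with 1 array left out and was -3.29 without Csn3 and -3.22 over tested caseins, member sets chosen after seeing the data. Without Glycam1 the whey average was -1.74 and the casein minus whey value -1.06, each with groups apart. Both rest on Wap, which was well above background on neither knockout array. The casein minus whey groups were also apart over tested members only (-1.48) and with Csn3 left out (-2.38). The whey average ran from -2.94 to 1.12 and the casein minus whey value from -3.70 to -0.06. With 1 array left out, list medians ran from -0.57 to -0.26 for milk and lactation genes, from -0.11 to 0.021 for prolactin and STAT5 genes, and from -0.67 to -0.22 for relatives of the whey proteins. A lone array is assumed to vary like the others.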

Other observations

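The genes whose profile over the 4 arrays lay nearest to the casein average were searched among 13229 tested genes by root mean square distance on the log2 scale. They were the sodium-glucose transporter gene Slc5a9 (distance 0.35), the noradrenaline transporter gene Slc6a2 (0.41), the transcription factor gene Bhlha15 (0.43), the tight junction gene Cldn2 (0.46) and Wdr72 (0.46). These genes were picked for closeness to the casein average, so the direction and rough size of their differences followed from the choice. Slc5a9 and Bhlha15 were well above background on all 4 arrays, with log2 differences of -2.24 and -2.17 between the labels. Slc6a2, Cldn2 and Wdr72 were well above background on the 2 WT arrays only, so the size of their differences is uncertain. Bhlha15 read 0.17 and -0.15 on the WT arrays and -2.05 and -2.28 on the knockout arrays.

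Distances to Glycam1 were larger, but this distance grows with the range of a profile. Glycam1 spanned 10.4 log2 units and was not well above background on WT 2 and knockout 1. Its distances therefore cannot be set against those to the caseins. The genes nearest to Glycam1 were Dapl1 (distance 2.13), the B cell gene Ms4a1 (2.28), the IgM receptor gene Fcmr (2.40), the fucosyltransferase gene Fut7 (2.42) and the chemokine receptor gene Ccr6 (2.42). Of these 5, Dapl1 was the one with a value above its mean on WT 1, at 0.85, and all 5 were highest on knockout 2. With 4 arrays per profile these distances describe the arrays and carry no test.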
